A study of Sus scrofa with 48 samples.

Results

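CCL21 and 9 other genes of the chemokine system (CCL19, CCR7, CCL2, CCL5, CXCL2, CXCL10, CXCL12, CXCL14 and CXCR4) were examined in pig subcutaneous fat (SCAT). The genes were taken by name, and a probe of theirs was read when it was no control spot and when, in 1 or more groups of pigs, 9 or more of the 12 arrays showed it well above background. All 34 probes of the 10 genes met this rule, of 60305 probes on the array and 44356 that passed the same filter. The 10 genes are among 10905 with a kept probe. A CCR7 probe, O9612, passed through the LF high RFI group alone, with 10 of 12 arrays there and 7 or 8 in the other groups. CCL21 was selected on its diet difference in these same arrays, so that difference is given below as a description with no test, together with its values in each scan date. The remaining 9 genes were tested for diet, and all 10 for line.

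Chemokines are small secreted proteins that steer leukocytes along concentration gradients by way of G protein-coupled receptors. CCL21 and CCL19 are both ligands of CCR7, the receptor that brings naive T cells and mature dendritic cells into lymph nodes, and CCL21 is made by lymphatic endothelium and by the stroma of lymph nodes. CCL2 draws monocytes, CCL5 draws T cells and monocytes, CXCL2 draws neutrophils through CXCR2, and CXCL10 is an interferon-induced attractant of activated T cells. CXCL12 holds CXCR4-bearing cells in tissue niches, and CXCL14 is a homeostatic chemokine of epithelia and adipose tissue. In fat of obese animals, CCL2 is best known for its link with macrophage entry.

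The pigs were pure Large White barrows of 2 lines bred in opposite directions for residual feed intake (RFI, the feed eaten beyond that predicted, so that low RFI pigs are the more efficient ones), labelled RFIneg for low RFI and RFIpl for high RFI. They ate, ad libitum, either a diet rich in fat and fiber (HF, with plant oils and wheat straw) or a starch-based diet low in fat and fiber (LF), and the labels give their age as 132 days. The 2 diets and 2 lines made 4 groups of 12 pigs, 1 array per pig, and dorsal SCAT was taken from all of them. A line is a population of related animals, so a line difference cannot be told apart from other differences between these 2 lines.

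Levels are given as the log2 of the background-subtracted brightness of a spot minus the median of all kept probes on the same array, so that 0 is the median kept probe and a difference of 1 is a doubling. Levels of different probes cannot be set against each other. Between 62.2% and 81.9% of probes were well above background on an array, and no spot of a member was flagged as non-uniform or saturated. The arrays lay on 6 slides scanned on 2 dates, 24 arrays each, with 6 arrays of every group on each date. The adipocyte markers ADIPOQ, PLIN1, LEP and FABP4 were well above background on all 48 arrays. In whole tissue, fewer cells of a type and less RNA per cell cannot be told apart.

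The probes that carry the CCL21 result are shown first, because its size rests on 2 separate sequences and because CCL21 and CCL19 are related genes. All probes were 60 bases long. The brightest CCL21 probe, O12732, is shown from base 21 to base 50, with the letters AATAAA (the canonical polyadenylation signal) in capitals. The second, A_72_P165806, and the brightest CCL19 probe, A_72_P150086, are shown whole, with the longest run of bases that they share in capitals.
CCL21 O12732: tatacctaactgAATAAAaagccattccgg
CCL21 A_72_P165806: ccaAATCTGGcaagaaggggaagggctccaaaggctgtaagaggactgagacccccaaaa
CCL19 A_72_P150086: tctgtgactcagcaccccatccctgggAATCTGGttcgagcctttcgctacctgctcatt

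The letters AATAAA as printed were in 10.3% of all probes on the array and their reverse complement in 4.3%, so the match is a description of O12732 and no evidence of a site. The CCL21 and CCL19 probes shared no run longer than 7 bases, and the 2 CCL21 probes none longer than 5. Another CCL21 spot carried the same 60 bases as A_72_P165806 and is called its repeat spot. Among all 34 probes there were 26 distinct sequences and 8 pairs of spots with identical bases. Spots of a gene on 1 array were read from the RNA of 1 pig and are not replicates, and those with different bases did not always follow each other. The repeat spots of CCL21 differed by a median of 0.093 (log2) over the 48 arrays.

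CCL21 transcripts were lowest and most uneven in LF low RFI pigs. At O12732 the level ran from 1.27 to 4.38 with a median of 3.20 in HF low RFI pigs, from 2.54 to 4.64 with a median of 3.54 in HF high RFI pigs, from -2.99 to 4.05 with a median of 1.92 in LF low RFI pigs, and from 2.09 to 4.22 with a median of 2.98 in LF high RFI pigs. The groups overlapped, and the LF low RFI group alone reached below 1.27. Its SD was 1.84 (n = 12), against 0.57 to 0.92 in the others. The group means rose from 1.64 in LF low RFI pigs to 3.02 in HF low RFI, 3.14 in LF high RFI and 3.52 in HF high RFI pigs, and neighbours in the order of these means differed by less than the SD of the more variable group.

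**Figure D1:**
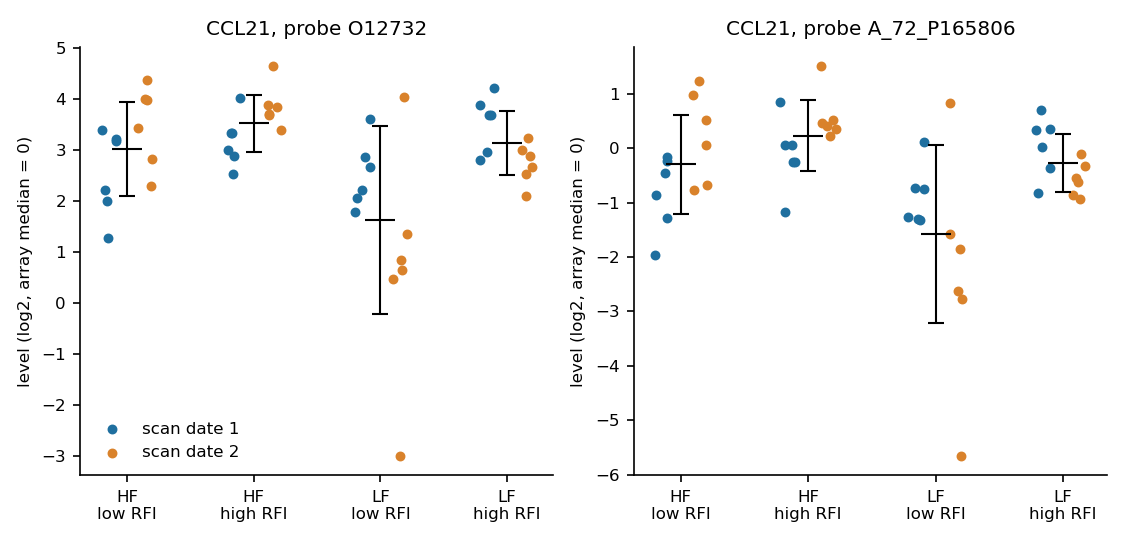
Level of CCL21 (log2 brightness, array median 0) at the probes O12732 and A_72_P165806 on each array, by group and scan date (dots), with the mean and SD of the 12 arrays of a group (bars). The LF low RFI arrays of the second scan date hold the lowest values of both probes, down to -2.99 and -5.64, and also 1 of the high ones, at 4.05 and 0.82.

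The low CCL21 values were concentrated in 5 LF low RFI pigs of the second scan date. Replicates 7, 8, 9, 11 and 12 of that group had 5 of the 6 lowest O12732 levels of all 48 arrays, namely -2.99, 0.48, 0.66, 0.85 and 1.36. Replicate 10 of the same group and scan date stood at 4.05, the fourth highest of all arrays. In the first scan date the LF low RFI pigs lay between 1.78 and 3.62, against 1.27 to 3.39 in the HF low RFI pigs of that date. On the array with the lowest CCL21 level, 75.4% of probes were well above background, rank 28 of 48 from the lowest.

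As a description, CCL21 was 1.84-fold higher under the HF diet at O12732, a log2 difference of 0.88 between the means of 3.27 (SD 0.79, n = 24) and 2.39 (SD 1.55, n = 24). The second probe gave 0.89 and its repeat spot 0.84. The higher level under the HF diet was seen in the second scan date alone. Within the first scan date it was -0.17 at O12732, -0.05 at the second probe and -0.11 at the repeat spot, and within the second it was 1.94, 1.82 and 1.79. In low RFI pigs it was 1.38 at O12732 and in high RFI pigs 0.39. Under the HF diet, both lines had higher means on the second scan date than on the first (3.49 against 2.55 in low RFI pigs, 3.86 against 3.19 in high RFI pigs), while under the LF diet both had lower ones (0.73 against 2.54, and 2.74 against 3.54).

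The diet value also moved with single arrays and with the set of arrays read. Without replicate 7 of the LF low RFI group it was 0.67 at O12732 and 0.70 at the second probe, and without replicate 10 of that group it was 0.99 at both. The scanner software had marked the local background of O12732 as an outlier on 30 of 48 arrays, 10 in the first scan date and 20 in the second. Over the other 18 arrays the O12732 difference was 0.11. Those arrays were mostly of the first scan date, so the marks cannot be told apart from the date. The second probe, which carried no such mark on any array, gave 0.37 on those 18 arrays, a comparison chosen after the values were seen. The part of the marks in the diet value was not tested.

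The line difference of CCL21 did not meet the cut-offs for a differentially-expressed probe (DEP). It was of similar size to the diet difference and kept its direction in both scan dates. CCL21 had not been picked on it, but the low LF low RFI arrays enter both differences, so the 2 are not independent. Without replicate 7 of that group, the O12732 diet difference was 0.67 and the line difference -0.80. To be a DEP, a probe had to change by more than 1.1-fold with an unadjusted limma p below 0.01, and its p after Benjamini-Hochberg adjustment over all 44356 kept probes had to stay below 0.08. At O12732, CCL21 averaged 2.33 (SD 1.59, n = 24) in the low RFI line and 3.33 (SD 0.61) in the high RFI line, a difference of -1.01 (SE 0.31, raw p = 0.00199, adjusted p = 0.107). The second probe gave -0.92 (adjusted p = 0.113) and its repeat spot -0.86 (adjusted p = 0.127). The lines overlapped, since 7 of 24 low RFI pigs lay above the high RFI mean. The O12732 value was -0.82 within the first scan date and -1.19 within the second, -1.50 under the LF diet and -0.51 under the HF diet.

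The line call of CCL21 turned on single arrays. It was a DEP, at 1 to 3 of its probes, without HF low RFI replicate 12 (-0.99 at the second probe, adjusted p = 0.0773), without LF low RFI replicate 6, 7 or 10 (-1.10, -0.80 and -1.12 at O12732) or without LF high RFI replicate 10 (-1.05), and with limma's array weights (-0.92, adjusted p = 0.0512). In the 43 other refits that left out 1 array, no member probe was called by line. The CCL21 diet difference in low RFI pigs minus that in high RFI pigs, the interaction, was 0.996 (SE 0.62) at O12732. It is given as a description with no p, since CCL21 was picked on its diet values. That value was 0.58 without LF low RFI replicate 7 and 1.22 without replicate 10 of that group.

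No tested member probe was a DEP, with CCL21 left untested by diet. Of the 31 probes of the 9 other genes, 0 were called by diet, where 13.1% of all 44356 probes were (5.61% higher and 7.44% lower under the HF diet). Of these 31 probes, 3 had a raw p under 0.05, all of CXCL2, their median difference was -0.02, 14 were above 0, and the median over all probes was -0.02 too. By line, 0 of 34 member probes were called, where 1.37% of all probes were, and 3 had a raw p under 0.05, the CCL21 ones. Their median difference was -0.11 and 9 were above 0, against a median of 0.01 over all probes. No probe on the array was called for the interaction (0% of 44356, with 462 at a raw p under 0.05 and 0 of them a member probe). For every one of the 34 probes the ranges of the diets, and those of the lines, overlapped.

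**Figure D2:**
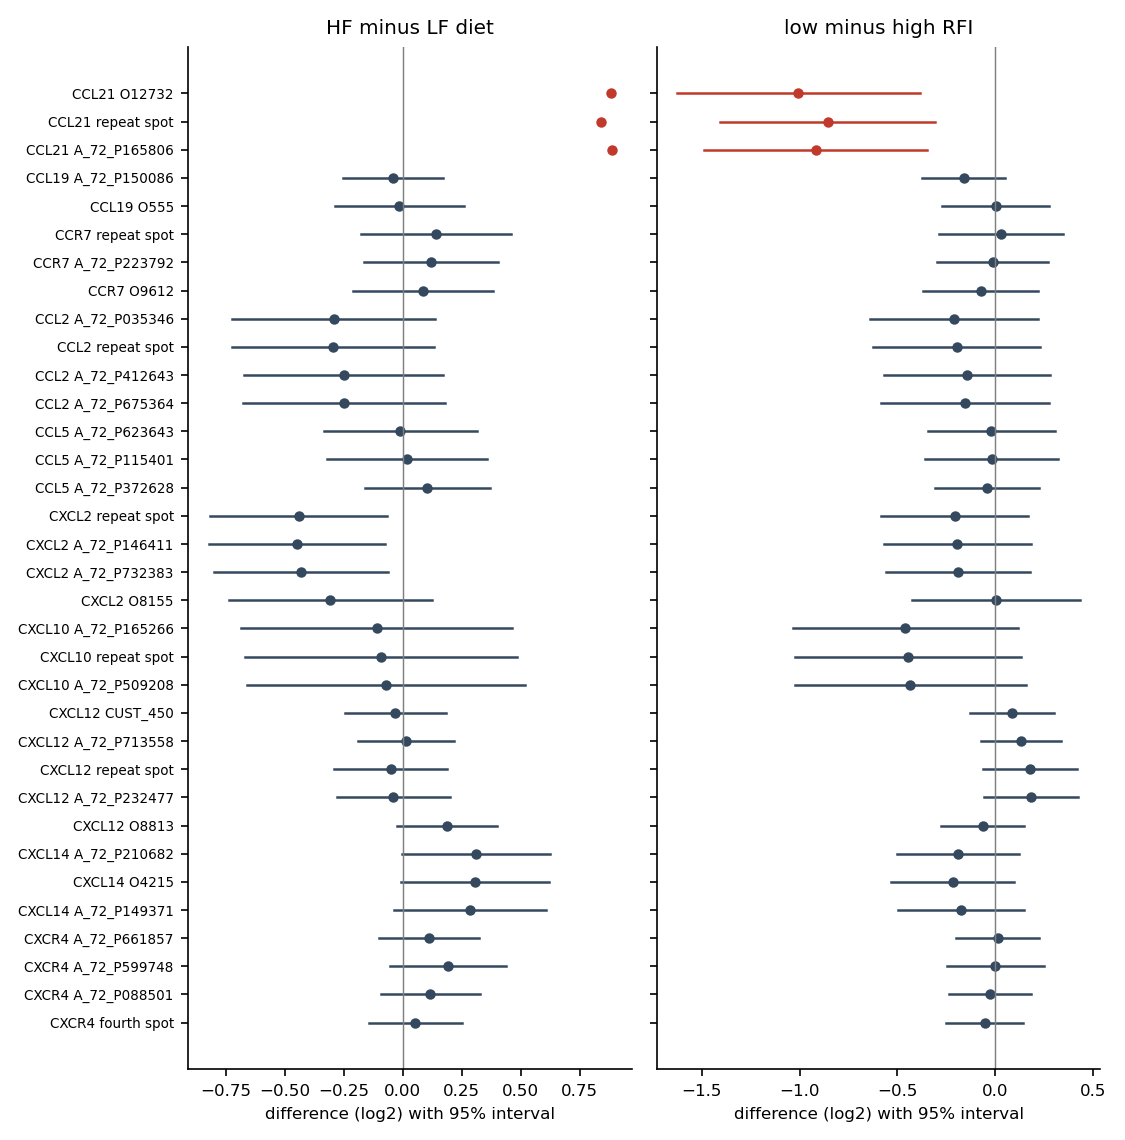
Differences in log2 level between the diets (left) and the lines (right) at each of the 34 probes (dots), with 95% intervals from the limma fit (lines), which are left out for CCL21 by diet because CCL21 was picked for that difference. CCL21 probes, in red, lie near 0.88 by diet and near -0.92 by line, and the other members lie between -0.45 and 0.31 by diet.

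CCL19, the other CCR7 ligand, showed no shift like that of CCL21. At A_72_P150086 it ran from 2.23 to 3.28 (median 2.58) in HF low RFI, from 2.31 to 3.93 (median 2.74) in HF high RFI, from 2.28 to 3.02 (median 2.71) in LF low RFI and from 2.33 to 3.70 (median 2.79) in LF high RFI pigs. All 4 groups overlapped, sharing the stretch from 2.33 to 3.02. The diet difference was -0.04 (95% interval -0.25 to 0.17, adjusted p = 0.841) and the line difference -0.16 (-0.37 to 0.05, adjusted p = 0.679). The other CCL19 probe, O555, gave -0.02 and 0.00, and over the 48 arrays it followed A_72_P150086 only loosely (r = 0.34). A spot with the bases of A_72_P150086 but no gene name in the tables used here was left out.

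CCR7, the receptor of both ligands, was dim. Its brightest spot, a repeat of A_72_P223792, ranged from -3.65 to -0.80 in HF low RFI, from -2.94 to -1.48 in HF high RFI, from -3.20 to -1.44 in LF low RFI and from -3.05 to -1.84 in LF high RFI pigs, with medians of -2.36, -2.27, -2.42 and -2.46. The highest and the lowest CCR7 values of all arrays were both in the HF low RFI group. The spot differed by 0.14 between diets (95% interval -0.18 to 0.46, adjusted p = 0.619) and by 0.03 between lines (-0.29 to 0.35, adjusted p = 0.982). With single arrays left out, its diet value ran from 0.075 to 0.20. Repeat spots of CCR7 correlated at r = 0.77, the least close of the 8 identical pairs, and the local background of the brighter one was marked as an outlier on 32 arrays. O9612 did not follow either of them (r = 0.14 and 0.07).

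Of the inflammatory CC ligands, CCL2 was lower under the HF diet by less than its spread. Its level at A_72_P035346 ran from 1.72 to 4.52 (median 2.59) in HF low RFI, from 2.24 to 3.50 (median 2.72) in HF high RFI, from 1.97 to 5.66 (median 2.57) in LF low RFI and from 2.14 to 3.98 (median 3.37) in LF high RFI pigs. Single pigs of both low RFI groups stood above all high RFI pigs. The 4 CCL2 spots, of 2 sequences that moved together (r = 0.978 to 0.998), gave diet differences from -0.30 to -0.25 with adjusted p from 0.399 to 0.498, and line differences from -0.21 to -0.14. Without LF low RFI replicate 11, the pig at 5.66, the diet difference was -0.17 at A_72_P035346 and -0.13 at A_72_P412643, of the other sequence, and the line differences there were -0.33 and -0.26. At A_72_P035346 the diet difference was -0.22 within the first scan date and -0.37 within the second.

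CCL5 medians lay close together in the 4 groups. The probe A_72_P623643 had medians of 3.06 in HF low RFI, 3.24 in HF high RFI, 3.26 in LF low RFI and 3.13 in LF high RFI pigs, and the LF low RFI group alone spanned all other values, from 1.87 to 4.77. Its diet difference was -0.01 (95% interval -0.34 to 0.31) and its line difference -0.02 (-0.35 to 0.31). The other CCL5 probes, A_72_P115401 and A_72_P372628, gave 0.02 and 0.10 by diet. The sign of the CCL5 diet difference changed with the scaling of the arrays, and it was 0.12 within the first scan date and -0.14 within the second.

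CXCL2, a neutrophil attractant, had the lowest p of the tested members by diet, at A_72_P146411, which was not its brightest spot. At A_72_P146411 it ran from 0.91 to 3.22 (median 2.17) in HF low RFI, from 1.23 to 3.50 (median 2.58) in HF high RFI, from 1.33 to 4.08 (median 2.69) in LF low RFI and from 2.07 to 4.02 (median 2.64) in LF high RFI pigs. The diets overlapped, with 19 of 24 LF pigs above the HF mean. The difference was -0.45 (SE 0.19, raw p = 0.0196, adjusted p = 0.111), which is 1.37-fold lower under the HF diet and not a DEP. It was -0.50 in the low RFI line and -0.40 in the high RFI line, -0.37 within the first scan date and -0.52 within the second.

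The other CXCL2 spots gave -0.44 (the repeat spot), -0.43 (A_72_P732383, which shares 29 bases in a row with A_72_P146411) and -0.31 (O8155, adjusted p = 0.38). At A_72_P146411, CXCL2 met the cut-offs without HF low RFI replicate 5 (-0.50, adjusted p = 0.0744) or HF high RFI replicate 6 (-0.50, adjusted p = 0.0730). It also met them without LF low RFI replicate 4 (-0.51, adjusted p = 0.0533). The repeat spot and A_72_P732383 met them in the last of these refits alone, and O8155 in none. By line, the CXCL2 probes had -0.21 to 0.00. At A_72_P146411 the line value was -0.55 within the first scan date and 0.16 within the second.

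CXCL10 varied widely within every group. The probe A_72_P165266 ran from 0.68 to 4.18 (median 2.22) in HF low RFI, from 1.53 to 4.05 (median 2.75) in HF high RFI, from 0.66 to 4.80 (median 2.53) in LF low RFI and from 1.93 to 5.15 (median 2.55) in LF high RFI pigs. The lowest pigs of both low RFI groups lay below all high RFI pigs, and the highest pig was a LF high RFI one. The diet difference was -0.11 (95% interval -0.69 to 0.46, adjusted p = 0.848) and the line difference -0.46 (-1.03 to 0.12, adjusted p = 0.652). Its 3 spots moved together (r = 0.993 to 0.998). The line value was -0.07 within the first scan date and -0.84 within the second.

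**Figure D3:**
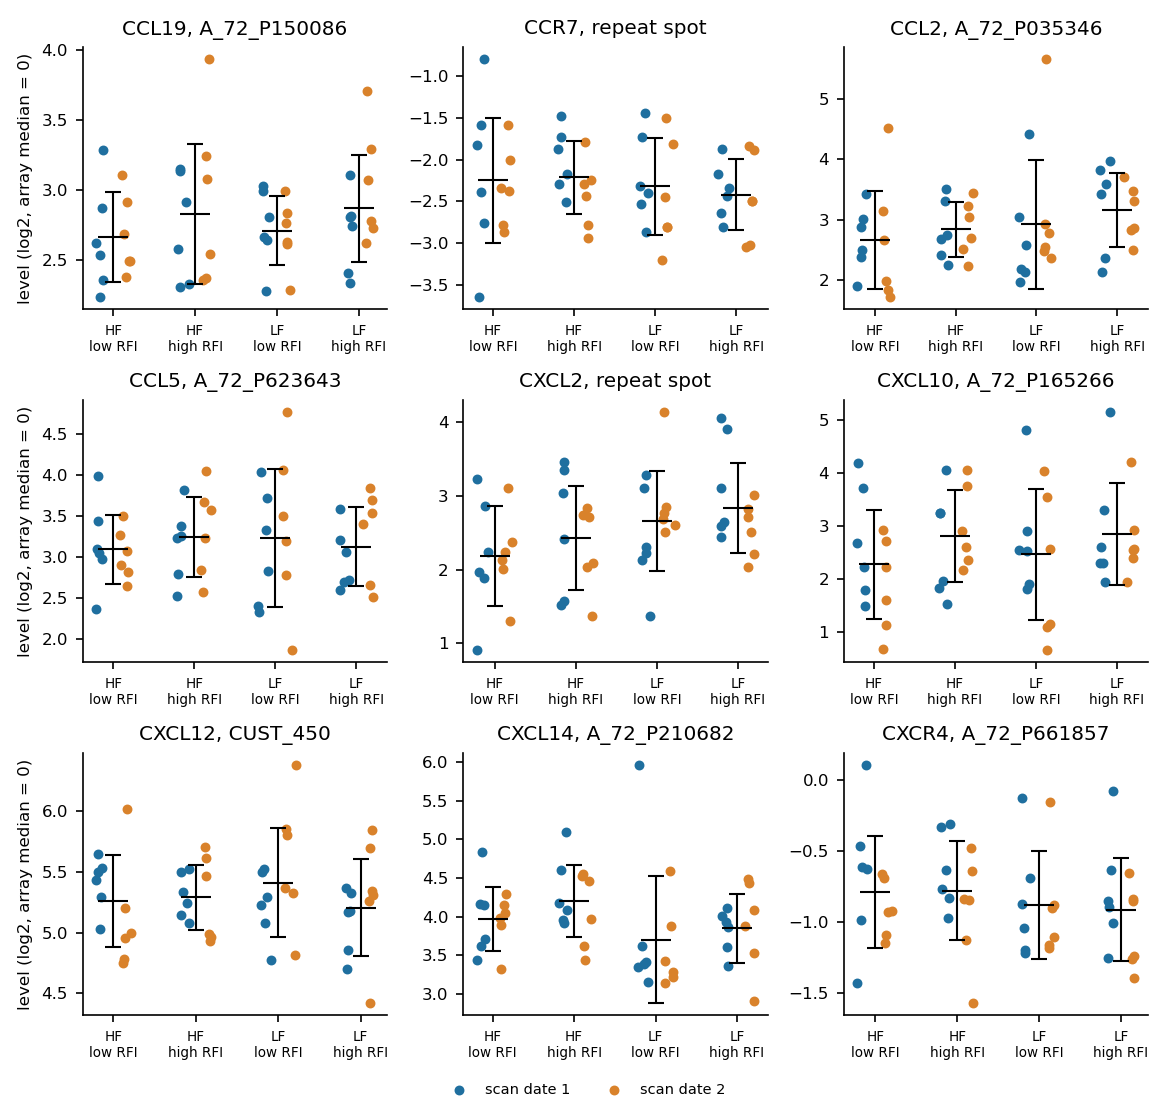
Level (log2 brightness, array median 0) of the brightest spot of CCL19, CCR7, CCL2, CCL5, CXCL2, CXCL10, CXCL12, CXCL14 and CXCR4 on each array, by group and scan date (dots), with the mean and SD of 12 arrays (bars); each panel has its own axis. All 4 groups overlap in every panel, and a LF low RFI array at 5.96 stands above all others for CXCL14.

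CXCL12, the ligand of CXCR4, was bright, with group medians close together. At its brightest probe, CUST_450, medians were 5.25 in HF low RFI, 5.29 in HF high RFI, 5.35 in LF low RFI and 5.29 in LF high RFI pigs, and all arrays lay between 4.42 and 6.38. The diet difference was -0.03 (95% interval -0.25 to 0.18) and the line difference 0.09 (-0.13 to 0.30). The diet value turned with the scan date, at 0.19 within the first and -0.25 within the second. The CXCL12 probes disagreed. A_72_P713558, A_72_P232477 and the repeat spot of the latter followed each other (r = 0.77 to 0.99), CUST_450 followed them with r = 0.22 to 0.43, and O8813 had r = -0.10 with the repeat spot and 0.45 with CUST_450. O8813 was also the CXCL12 probe with the highest diet value (0.19, adjusted p = 0.262) and the lowest line value (-0.06), the others being at -0.05 to 0.01 and 0.09 to 0.18.

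CXCR4 levels at A_72_P661857 had medians of -0.81 and -0.80 in HF low and high RFI pigs and of -0.97 and -0.88 in LF low and high RFI pigs, with all arrays between -1.57 and 0.11. The 4 CXCR4 spots gave diet differences from 0.05 to 0.19 (adjusted p from 0.332 to 0.782) and line differences from -0.05 to 0.01. Neither CXCL12 nor its receptor passed the test by diet or line.

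CXCL14 was the tested member with the highest diet values, again short of the cut-offs. At A_72_P210682 it ran from 3.33 to 4.83 (median 4.01) in HF low RFI, from 3.44 to 5.10 (median 4.13) in HF high RFI, from 3.14 to 5.96 (median 3.40) in LF low RFI and from 2.91 to 4.48 (median 3.90) in LF high RFI pigs. The LF low RFI median was the lowest of the 4, yet 1 pig of that group stood above every other array. The difference was 0.31 (SE 0.16, raw p = 0.0525, adjusted p = 0.202), or 1.24-fold higher under the HF diet, with 0.33 within the first scan date and 0.29 within the second. Its other spots gave 0.31 and 0.28. That high array was LF low RFI replicate 4, without which the diet difference was 0.41 (adjusted p = 0.0208) and all 3 CXCL14 probes were DEP.

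The rest of the chemokine system was read from 4 lists of other ligands, receptors and atypical receptors, of which 33 of 48 genes had a kept probe. By diet, 3 of them were DEP at their brightest probe (9.09%, against 12.6% of all 10905 genes, 3.35% higher and 9.21% lower), all lower under the HF diet, and by line 0 were (against 1.31%). ACKR3, an atypical receptor that scavenges CXCL12, averaged 1.48 (SD 0.65, n = 24) under the HF and 2.05 (SD 0.66) under the LF diet, a difference of -0.57 (adjusted p = 0.0314). CXCR2, the receptor of CXCL2, fell by 0.25 on the log2 scale (adjusted p = 0.0248). PPBP, a platelet chemokine that also binds CXCR2, fell by 0.42 on the log2 scale (adjusted p = 0.0673). It was dim, with means of -3.61 under the HF and -3.19 under the LF diet. As it was well above background on 45 of 48 arrays, its fold change is less certain. The median diet difference of the 33 genes was -0.01.

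In 4 further lists of signalling and response genes, 3 of 70 tested genes were called by diet (4.29%, against 12.6% of all genes), all lower under the HF diet, the more frequent direction over all genes too, and 1 by line (1.43%, against 1.31%). RAC1, a small GTPase of chemokine-driven migration, was the call among 19 tested genes of chemokine receptor signalling (-0.14, adjusted p = 0.000562). CHUK, a kinase of the noncanonical NF-kB pathway that drives lymphoid chemokines, was the call among 8 genes of that list (-0.24, adjusted p = 0.0428). IRF7, an interferon regulatory factor, was the call among 24 interferon-induced genes (-0.47, adjusted p = 0.00441), and none of 19 inflammatory cytokine and NF-kB target genes was a DEP. By line, CD40, a costimulatory receptor upstream of noncanonical NF-kB, was the call in these lists, at 2.63 in the low RFI line and 3.12 in the high RFI line (-0.49, adjusted p = 0.0368).

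Markers of the cells that make or answer to these chemokines were set beside CCL21. Of 13 marker lists (111 of 160 genes tested), 2 genes were higher under the HF diet and 6 lower, together 7.21%, against 12.6% of all genes (3.35% higher and 9.21% lower). CD247, a T cell receptor chain, was the call among 11 T cell markers (-0.20, adjusted p = 0.0348), and LCN2 the call among 6 neutrophil markers (-1.23, adjusted p = 0.000715). Neither stood for its list, since 7 of the 11 T cell markers were above 0 (median 0.06) and 3 of the 6 neutrophil markers were (median 0.0063). Among 14 adipocyte markers, LEP, ACACA, CIDEA and CEBPA fell by 0.67, 0.62, 0.36 and 0.14 on the log2 scale, and 3 of the 14 were above 0 (median -0.10). Among 13 fibroblast markers PDGFRA and COL1A2 rose by 0.31 and 0.36, and 12 of the 13 were above 0 (median 0.10). None of 9 skeletal muscle markers (median -0.34) and none of 5 blood cell markers (median -0.12) was above 0 by diet, and none of either list was a DEP. No lymphatic endothelial, lymph node stroma, B cell, macrophage or dendritic cell marker was a DEP by diet or line.

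Across pigs, CCL21 was compared with 16 measures after removal of the group means: the 9 other members and 7 marker lists, each list as the mean level of its measured genes. Only the lymphatic endothelial list passed after adjustment over the 16 relations (Pearson r = 0.57, adjusted p = 0.00048; Spearman rho = 0.69, adjusted p = 0.00016; two-sided permutation tests with 100000 resamples, n = 48, whose smallest possible raw p is 1e-05). These group means were taken over both scan dates. With them removed, r was 0.65 within the first scan date and 0.59 within the second. It was 0.58 without LF low RFI replicates 7 and 10, the 2 arrays farthest from the CCL21 median after removal of the group means. With the mean of each group on each date removed in place of the means over both dates, r was 0.57 within the first date, 0.55 within the second and 0.55 over both. That step was added after the values were seen.

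No other member followed CCL21 across pigs. CCL19 had r = -0.02 (rho = -0.01, adjusted p = 0.951) and CCR7 r = -0.15 (rho = -0.10, adjusted p = 0.533). CXCL2 (r = -0.35, rho = -0.31), CXCL12 (r = -0.33, rho = -0.36) and CCL5 (r = -0.30, rho = -0.22) had the lowest r, with adjusted p of 0.0763, 0.0916 and 0.11. Without the 2 farthest arrays these were -0.20, -0.30 and -0.09. The adipocyte list, at r = 0.36 (rho = 0.16, adjusted p = 0.0763), had r = 0.08 without the 2 farthest arrays, both of the second scan date, and 0.32 within the first scan date.

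**Figure D4:**
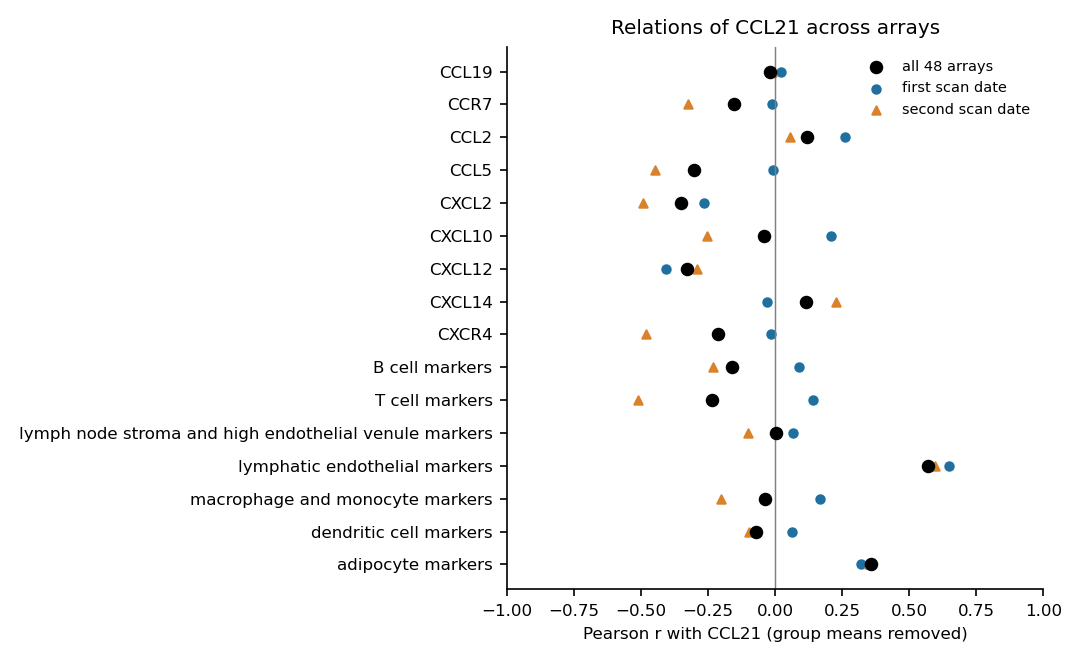
Pearson r of the CCL21 level (probe O12732) with the brightest probe of each other member and with the mean level of 7 marker lists, over all 48 arrays (black) and within the first (blue) and second (orange) scan date, with group means over both dates removed. The lymphatic endothelial list stands apart at 0.57, 0.65 and 0.59.

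The lymphatic list moved with CCL21 through some of its genes. Of its 9 genes 5 had a kept probe, and FLT4, MMRN1, STAB2 and TFF3 had none. Its mean level ran from -1.03 to -0.10 in HF low RFI, from -0.78 to -0.16 in HF high RFI, from -1.17 to 0.02 in LF low RFI and from -0.96 to 0.16 in LF high RFI pigs. PROX1, the transcription factor that sets lymphatic endothelial identity, had r = 0.76 with CCL21, and RELN 0.57, which was 0.32 without the 2 farthest arrays. PDPN had 0.23, CLEC4G -0.02 and LYVE1 -0.09, and without those arrays 0.25, -0.21 and 0.24, so that the sign for LYVE1 rested on them. Each measured marker of the list had a level on all 48 arrays, which does not show that it was above background in every group.

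PROX1 was also the closest of all 10871 genes compared with CCL21 by Pearson r. Its levels ran from -3.20 to -1.39 (median -2.22) in HF low RFI, from -2.56 to -1.24 (median -1.91) in HF high RFI, from -4.29 to -1.67 (median -2.75) in LF low RFI and from -2.68 to -1.33 (median -2.24) in LF high RFI pigs. The 4 arrays lowest in CCL21, LF low RFI replicates 7, 8, 9 and 11, were the 4 lowest in PROX1. Their PROX1 levels, from -4.29 to -3.35, lay within the range of CCR7 O9612, a probe near background. That limits how closely they can be read. Beyond them the orders differed, as in LF low RFI replicates 3 and 4. These ranked 11 and 9 from the lowest in CCL21 and 37 and 40 in PROX1. Replicate 7 was at the same time the highest of all arrays in LYVE1, at 0.24. PROX1 itself was no DEP, with a diet difference of 0.35 (raw p = 0.0449, adjusted p = 0.183) and a line difference of -0.47 (raw p = 0.00869, adjusted p = 0.222). Like that of CCL21, its diet value differed in sign between the scan dates, at -0.21 in the first and 0.91 in the second. Its line value was -0.35 and -0.59. PROX1 had been singled out by an r that kept shifts of a group between dates, so this likeness is partly built in. The part of lymphatic content in the CCL21 differences was not tested.

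**Figure D5:**
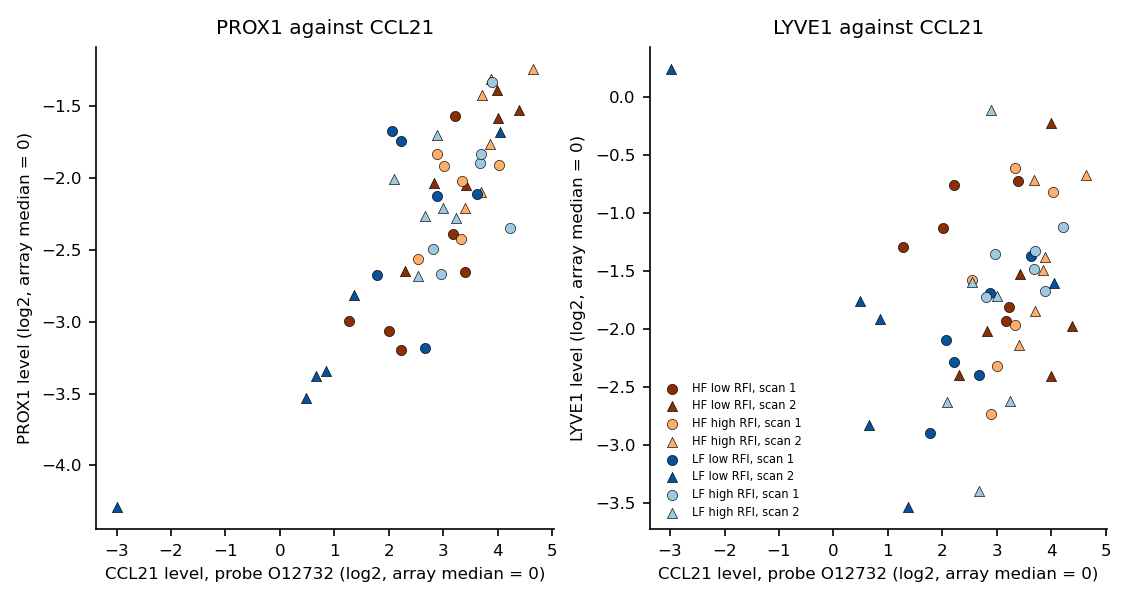
Levels of PROX1 (left) and LYVE1 (right) against CCL21 at probe O12732 (all log2 brightness, array median 0), 1 point per array, coloured by group, with circles for the first and triangles for the second scan date. PROX1 rises with CCL21 down to the LF low RFI array at -2.99, while LYVE1 is highest, at 0.24, on that same array.

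The next closest genes by Pearson r over the 48 arrays, group means removed, were SCG3 (0.70), a secretory granule protein, CPXM2 (0.66), MMP19 (0.66), a matrix metalloproteinase, and GATC (0.60), a subunit of a mitochondrial amidotransferase. Within the scan dates, with the same group means over both dates removed, PROX1 had 0.63 and 0.88, SCG3 0.72 and 0.71, CPXM2 0.60 and 0.70, MMP19 0.76 and 0.65, and GATC 0.66 and 0.62. With the mean of each group on each date removed, PROX1 had 0.42 and 0.86, SCG3 0.58 and 0.65, CPXM2 0.37 and 0.62, MMP19 0.78 and 0.60, and GATC 0.64 and 0.59. These values rank 10871 genes on the arrays in hand and carry no test. The 9 other members ranked from 3349 (CCL2) to 10673 (CXCL2) in the same order, so none was among the genes nearest to CCL21.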

How the data were processed

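Total RNA of dorsal SCAT was labelled by the authors with Cy3 and hybridized to a custom porcine array, 8 to a slide, and spots were quantified with Agilent Feature Extraction. The deposited scanner files hold the intensity of each spot on a linear scale, of which the processed signal, background-subtracted by that software, was used. A second file deposited by the authors holds log2 values of 38987 probes (30 of them member probes), the median brightness minus the array median without background subtraction. The submitters' processing notes name R 2.10.0.

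After removal of control spots, 227 non-uniform or population-outlier spots were set to missing (156 at kept probes). The log2 processed signal was centred on each array's median, as in the study's methods. Gene names came from the Sscrofa11.1 reference table, matched by accession (573 probes by the one in the probe name) or by gene name. For 1277 probes the gene name of the array files alone was used, and 34093 probes stayed unnamed. The annotation lists the probes as unmapped, so no genome position is given.

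A linear model with diet, line and their interaction was fitted over the 48 arrays with limma 3.58.1 (lmFit, then eBayes with intensity trend, two-sided) under R 4.3.3, in place of the two-way analysis of variance in the study's methods. The scripts were tested on simulated data. Replicates are pigs. The members, gene lists and tests were chosen with earlier results of these data known. The text names all member probes, the genes called in each list (at most the 5 with the greatest difference), the first 4 markers of a list set beside a result, and the 5 genes with the highest r to CCL21. A gene was read at its brightest kept probe. The exception was CXCL2 in its own paragraphs, led by A_72_P146411, whose repeat spot was brighter by a mean of 0.007 (log2). Alternatives were other scalings, background corrections, filters, flags, blocks, tests and the second deposited file, and each array left out in turn. The number of arrays limits the precision.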

Additional observations from a re-analysis of the deposited data

How the results depend on the processing

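Member probes called by diet numbered 0, and 0 too under 16 alternatives. There was 1 (CXCL2, -0.52) with background outlier flags set to missing, and 0 to 6 when single arrays were left out. The line count was 0 except for 3 with limma's array weights and 0 to 3 with single arrays left out, all CCL21. The interaction count was 0 throughout. The CCL21 diet difference (O12732, second probe, repeat spot) reversed to -0.17, -0.049 and -0.11 in the first scan date alone. Signs also turned as follows. By diet, CCL5 was 0.030, 0.033, 0.12 and 0.086, and CXCL12 0.0081, 0.027 and 0.19, with the 75th percentile, quantile normalization, the first scan date and (CCL5) array weights. CCR7 was -0.0032 with background flags missing, and CXCL10 0.019 with array weights. By line, CCR7 was -0.13, -0.0089 and -0.038 with background flags missing, array position as a block and array weights, CXCR4 -0.050 and -0.056 in the first scan date and with array weights, CCL5 0.060 in the first and CXCL2 (repeat spot) 0.13 in the second scan date. With single arrays left out, CCR7 by line ran from -0.034 to 0.095, CCL5 by diet from -0.074 to 0.058 and by line from -0.090 to 0.042, CXCL12 by diet from -0.069 to 0.011 and CXCR4 by line from -0.028 to 0.051. The lymphatic relation was the only 1 of 16 to pass under all 5 alternatives, and passed (r = 0.55, adjusted p = 0.00192) with the mean of each group on each date removed, added after the data were seen. Among the others, r changed sign for CCL19 (0.049 with group means kept, 0.021 in the first scan date, 0.093 without the 2 farthest arrays), CXCL10 (0.029, 0.21 and 0.24 likewise), CCR7 and CXCR4 (0.042 and 0.017 without them), CXCL14 (-0.032 in the first scan date, -0.015 without them), B cells (0.087 in the first scan date), T cells (0.14 there, 0.069 without them), dendritic cells (0.064 and 0.12 likewise), lymph node stroma (-0.10 in the second scan date, -0.0019 with the median signal, -0.0043 with group-by-date means removed) and macrophages (0.023 with group means kept, 0.17 in the first scan date, 0.25 without the 2 arrays, 0.024 with the median signal, 0.022 with group-by-date means removed). The causes were not tested. The replicate numbers were not taken to pair the pigs, since the sample titles state no pairing. Same-numbered arrays had the highest mean r (0.16, lowest -0.19), with 48 of 72 pairs over 0.1. The means were 0.087 for other numbers on a slide and 0.061 for other slides of a date. Whether the numbers mark a shared structure was not tested. With the replicate number as a block, the counts stayed at 0, with CCL21 by line at -1.01 (adjusted p = 0.107). CCR7 O9612 and, on 1 LF low RFI array, the second CCL21 probe and its repeat spot were near background, which limits their fold changes. PPBP and the lowest PROX1 levels were dim too.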
